A study of Rattus norvegicus with 6 samples.

Results

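The 10 iron handling genes described here, measured in liver RNA, were the hormone gene Hamp, its regulators Hfe and Tfr2, the carrier Trf, the uptake receptor Tfrc, the ferritin chains Fth1 and Ftl1, the ferritin receptor Ncoa4 with its processed pseudogene Ncoa4-ps, and the exporter Slc40a1. They were taken by symbol from a table of 32930 gene rows, each symbol had 1 row, and all 10 were among the 18455 genes with enough counts to be tested. Of these, 9 are known iron genes, and Ncoa4-ps was chosen by its measured counts, which were lower after treatment in an earlier look at the same libraries. Its values are therefore given as a description, with no test. The other 9 were also listed with earlier results of these data known, so counts over them are descriptions too.

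The samples were 3 liver RNA libraries of animals given a high-fat diet alone (HFD) and 3 of animals given a high-fat diet with Huazhuo Tiaozhi granule (HTG), an herbal prescription for raised blood lipids. The labels give 12 weeks of intervention for both groups, and name 0.5% carboxymethyl cellulose-Na for the HFD group only. In the study's methods for its rats, the drugs were given in that same vehicle and began some weeks after the high-fat diet. How long these animals received the granule is therefore not certain. The labels describe both groups as nonalcoholic fatty liver, so neither group shows the liver on a normal diet. The labels of the HTG samples write the agent as HTG in the titles and as HCG in the treatment field. The labels name rat as the organism, the study's methods name C57BL/6 J mice for the RNA sequencing, and all 32930 rows carry mouse Ensembl identifiers. Whole liver was sequenced after poly(A) selection, and the sources do not say whether animals were pooled or whether each library came from a separate animal, so p-values measure only the spread between these 6 libraries, which may be technical.

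Iron leaves the gut, the macrophages and the liver through ferroportin, the product of Slc40a1, and the liver limits this flow with the peptide hormone hepcidin, the product of Hamp, which binds ferroportin and has it degraded. Hepatocytes adjust Hamp to iron through Hfe, Tfr2 and the bone morphogenetic protein pathway, and to inflammation through interleukin 6 and STAT3. Inside the cell, surplus iron is stored in ferritin cages of Fth1 and Ftl1 chains, and Ncoa4 carries ferritin to the lysosome, where the iron is released.

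The estimated counts summed to between 50648778 and 90563477 per library. Among low counts the value 4 was commoner (6450 times over the 6 libraries) than 3 (2549) or 5 (1757), as 8 was than 7 or 9, for a reason not given in the sources used here. If 1 fragment gave about 4 counts, the depth was 12662194 to 22640869 fragments, and counting error is larger than the counts alone imply. Where 3 values are given for a group, they are those of libraries 1, 2 and 3, in that order. Levels are given as CPM, the counts of a gene relative to the counts of its library, after TMM scaling where libraries are compared, and as the deposited FPKM, which is per transcript length, where genes are compared. Differences are log2 fold changes of HTG against HFD from edgeR's quasi-likelihood test, with the standard error (SE), and adjusted p-values are over all 18455 genes. The hepatocyte markers summed to between 96285 and 116566 CPM in every library, and all 10 of them were detected. Alb alone was at 53506 to 74503 CPM, so the sum says little of the others. Fitted values were above 0 for 2 of the 10 and below 0 for 8. Their median log2 fold change was -0.33, against 0.025 over all genes tested. At an unadjusted p under 0.05, 1 (Apoa1) was higher and 3 (Apob, Tat and Cps1) were lower in HTG, against 12.3% and 12.4% of all genes tested. As whole liver was measured, fewer cells of a type and less RNA per cell cannot be told apart.

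Hepcidin RNA was higher in every HTG library than in any HFD library, and Hfe, Tfrc, Fth1, Ftl1 and Ncoa4 were lower in every HTG library. Tfr2, Trf and Slc40a1 overlapped between the groups. Of the 9 genes other than Ncoa4-ps, 6 had an unadjusted p under 0.05, 1 higher and 5 lower in HTG, against 24.7% of all genes tested (12.3% higher and 12.4% lower). The same 6 did not overlap between the groups, against 32.1% of all genes tested. None of the 9 had an adjusted p under 0.05 in edgeR's test, in which the range was 0.0582 to 0.978, while DESeq2 gave 4 such genes, which were Tfrc, Fth1, Ftl1 and Ncoa4. Of all genes, 0.0108% passed that adjusted threshold in edgeR, and 13.8% of those with an adjusted p passed it in DESeq2. The median log2 fold change of the 9 was -0.69, against 0.025 over all genes tested. As the 9 were listed with earlier results of these data known, these shares and medians describe them and test nothing. The unadjusted p was under 0.05 for 3 of the 9 without HFD library 2 or without HTG library 3 (Hamp, Tfrc and Ncoa4) and for 2 without HTG library 2 (Tfrc and Ncoa4).

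**Figure D1:**
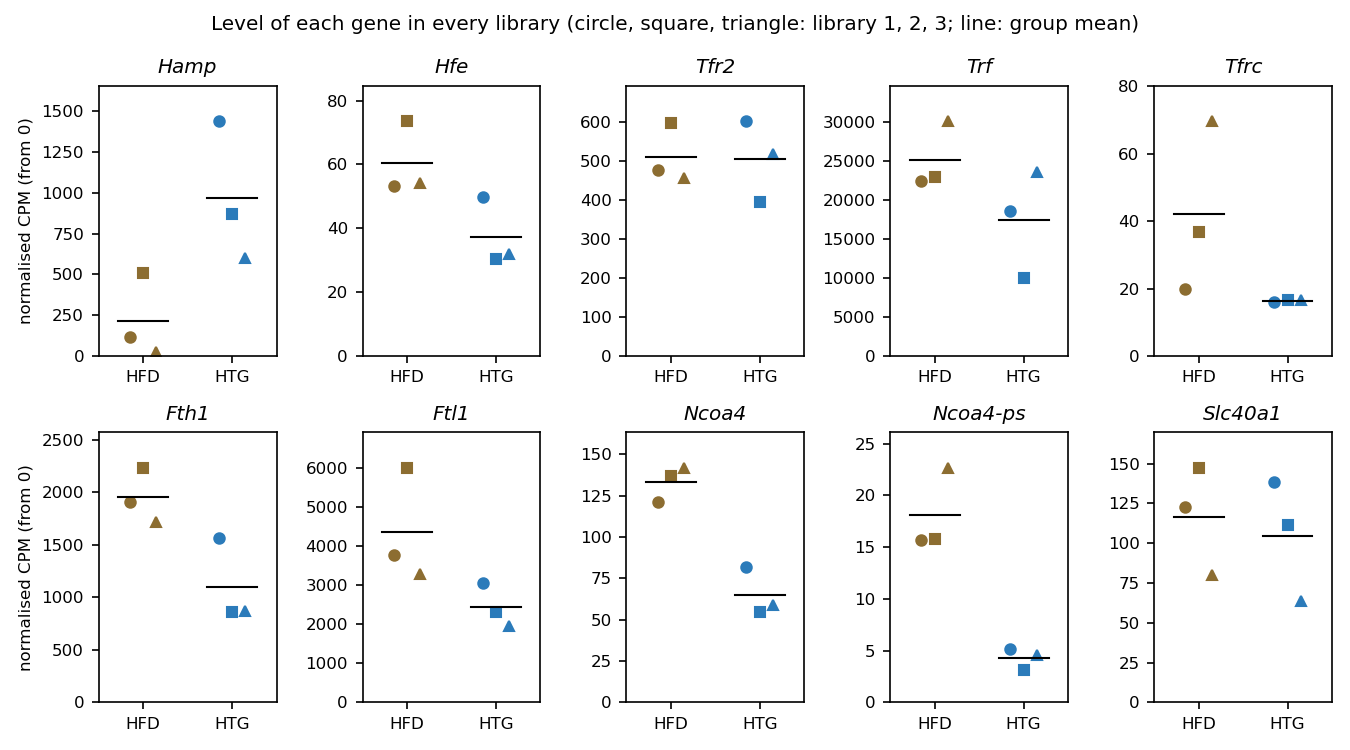
Normalised CPM (linear axes from 0) of the 10 genes in the 3 HFD (brown) and 3 HTG (blue) libraries, with circles, squares and triangles for libraries 1, 2 and 3 and a line at each group mean. Hamp lay between 22.0 and 509 in HFD and between 600 and 1440 in HTG, and Hfe, Tfrc, Fth1, Ftl1, Ncoa4 and Ncoa4-ps were lower in every HTG library than in any HFD library.

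Hamp (ENSMUSG00000050440, chr7:30641793-30643457, minus strand, as the table lists it) encodes hepcidin. Its level was 113, 509 and 22.0 CPM in HFD and 1440, 872 and 600 CPM in HTG. The HFD libraries differed widely among themselves, and the lowest HTG library was above the highest HFD library. The mean was 215 ± 259 CPM (SD, n = 3) in HFD and 971 ± 428 (SD, n = 3) in HTG, a fitted log2 fold change of 2.18 (SE 0.92), with an unadjusted p of 0.0446 and an adjusted p of 0.191 in edgeR's test. These levels rest on 1582 to 33917 counts in HFD and 28113 to 112167 in HTG, so counting error was small beside the spread between libraries. The size of the difference depended on single libraries. It was 3.84 without HFD library 2, and the unadjusted p was 0.13 without HFD library 1 (log2 fold change 1.87), 0.128 without HTG library 1 (1.75) and 0.0688 without HTG library 2 (2.25).

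Hamp2 (ENSMUSG00000056978, chr7:30621814-30624106), the second hepcidin gene of the mouse, lies 17686 bases from Hamp on the same strand and was far less abundant, at 1.82, 2.73 and 3.51 CPM in HFD and 6.16, 5.94 and 5.59 CPM in HTG. It was higher in every HTG library, with a log2 fold change of 1.13 (SE 0.29) and an adjusted p of 0.0716 in edgeR's test. The libraries were ordered differently for the 2 genes: HFD library 3 had the least Hamp and the most Hamp2 of its group. Per Hamp2 count there were 62.3, 186 and 6.28 Hamp counts in HFD, against 234, 147 and 107 in HTG, so the ratio of the 2 genes was not fixed. A plus-strand row, Gm44662, spans both genes and held 13 to 56 counts per library, which was 0.0374% to 0.822% of the Hamp counts and 5.16% to 18.5% of the Hamp2 counts.

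Hfe (ENSMUSG00000006611, chr13:23886017-23894837), the haemochromatosis protein that helps hepatocytes sense transferrin-bound iron, was at 53.3, 73.5 and 54.3 CPM in HFD and at 49.8, 30.4 and 32.0 CPM in HTG. The groups did not overlap, but HTG library 1 lay within a few CPM of the lowest HFD library. The mean was 60.4 ± 11.4 CPM (SD, n = 3) in HFD and 37.4 ± 10.8 (SD, n = 3) in HTG, a log2 fold change of -0.69 (SE 0.24), with an unadjusted p of 0.0199 and an adjusted p of 0.128 in edgeR's test. The unadjusted p was 0.0693 without HFD library 2, 0.0721 without HTG library 2 and 0.0768 without HTG library 3.

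Tfr2 (ENSMUSG00000029716, chr5:137568102-137585743), the hepatocyte transferrin receptor that acts as an iron sensor, was at 477, 595 and 456 CPM in HFD and at 601, 394 and 518 CPM in HTG. The groups overlapped over nearly their whole range, and the highest and the lowest value were both HTG libraries. The log2 fold change was -0.015 (SE 0.23), with an adjusted p of 0.978 in edgeR's test, and its sign turned under 3 of 16 other settings. Such a p does not show that the levels were equal.

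**Figure D2:**
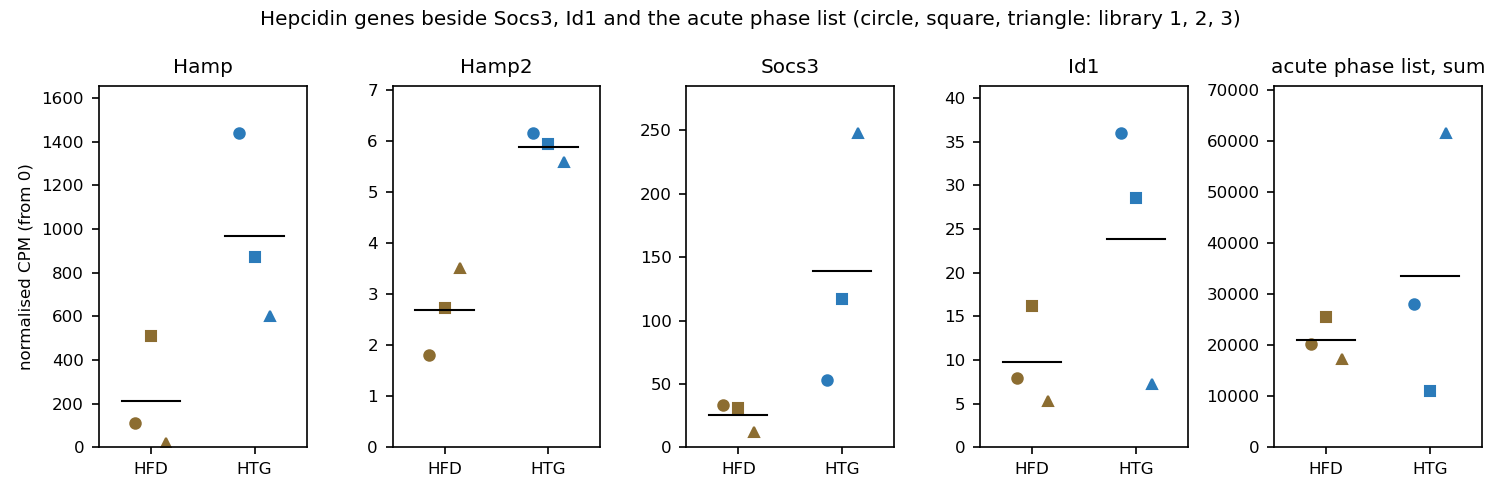
Normalised CPM (linear axes from 0) of Hamp, Hamp2, Socs3, Id1 and the sum of 12 acute phase genes in each library, with circles, squares and triangles for libraries 1, 2 and 3 and a line at each group mean. HTG library 3 had the most Socs3 (248) and acute phase RNA (61586) and the least Hamp of its group (600), while HTG library 2 had the lowest acute phase sum of all 6 libraries (11047).

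Of 25 other symbols listed for hepcidin signalling, 23 were tested. At an unadjusted p under 0.05, 2 were higher and 4 lower in HTG, 26.1% in all against 24.7% of all genes. None had an adjusted p under 0.05 in edgeR's test, and their median log2 fold change was 0.0017. Socs3, an inhibitor of cytokine signalling that STAT3 induces, was at 33.2, 31.3 and 12.4 CPM in HFD and 53.1, 117 and 248 CPM in HTG, a log2 fold change of 2.44 (SE 0.58, adjusted p 0.0629). Hjv, a co-receptor for bone morphogenetic proteins that hepcidin production requires, was 0.48 higher on the log2 scale (SE 0.20, adjusted p 0.187), and its unadjusted p of 0.0432 was over 0.05 in 5 of the 6 fits with a library left out, up to 0.165 without HFD library 1. Il6ra, the interleukin 6 receptor, differed by -0.77 (SE 0.19, adjusted p 0.0651), and Furin, a protease that cleaves prohepcidin, by -0.72 (SE 0.20, adjusted p 0.0816).

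Tmprss6, the protease that restrains hepcidin by cleaving the Hjv protein, differed by -0.65 on the log2 scale (SE 0.21, unadjusted p 0.0151, adjusted p 0.113), with an unadjusted p of 0.0595 without HTG library 3. Smad4, of the same signalling list, was lower in every HTG library and differed by -0.70 (SE 0.22, unadjusted p 0.0133, adjusted p 0.108 in edgeR's test). Id1, which bone morphogenetic protein signals induce together with Hamp, was at 7.94, 16.2 and 5.28 CPM in HFD and at 36.0, 28.5 and 7.24 CPM in HTG. Within each group Id1 and Hamp ordered the libraries alike, but the groups overlapped for Id1, and its log2 fold change was 1.29 (SE 0.58, unadjusted p 0.0574). Bmp6, the ligand that reports iron stores to hepatocytes, was at 0.704 to 3.60 CPM in the 6 libraries with a log2 fold change of -0.15 (SE 0.56). Tmprss6, Smad4, Id1 and Bmp6, and Ireb2 and Aco1 further on, were named after their values were seen. The part of these genes in the Hamp difference was not tested.

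Trf (ENSMUSG00000032554, chr9:103081200-103107643) encodes transferrin, the plasma protein that carries iron, and had the highest FPKM of the 10 genes. Its FPKM was 6756, 6253 and 8997 in HFD and 5201, 3025 and 6189 in HTG. In CPM it was at 22362, 22968 and 30067 in HFD and 18507, 9937 and 23609 in HTG. HTG library 3 was above 2 of the HFD libraries in CPM, so the groups overlapped there, while in FPKM they narrowly did not. The mean was 25132 ± 4284 CPM (SD, n = 3) in HFD and 17351 ± 6909 (SD, n = 3) in HTG, a log2 fold change of -0.53 (SE 0.36), with an adjusted p of 0.396 in edgeR's test.

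Tfrc (ENSMUSG00000022797, chr16:32427738-32451612) encodes the transferrin receptor through which most cells take up iron, and its mRNA is stabilised by iron regulatory proteins when iron is scarce. It was at 19.9, 36.8 and 69.7 CPM in HFD and at 16.1, 16.5 and 16.7 CPM in HTG. The 3 HTG libraries were nearly alike and all below the lowest HFD library, while the HFD libraries were spread over a wide range. The mean was 42.1 ± 25.3 CPM (SD, n = 3) in HFD and 16.4 ± 0.350 (SD, n = 3) in HTG, a 2.56-fold lower mean and a log2 fold change of -1.36 (SE 0.39), with an unadjusted p of 0.00779 and an adjusted p of 0.0892 in edgeR's test. Without HFD library 3 the log2 fold change was -0.79, and the unadjusted p stayed under 0.05 with every library left out in turn. Tfr2 had 34.3, 23.1 and 9.34 times the FPKM of Tfrc in HFD and 53.4, 34.0 and 44.2 times in HTG.

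**Figure D3:**
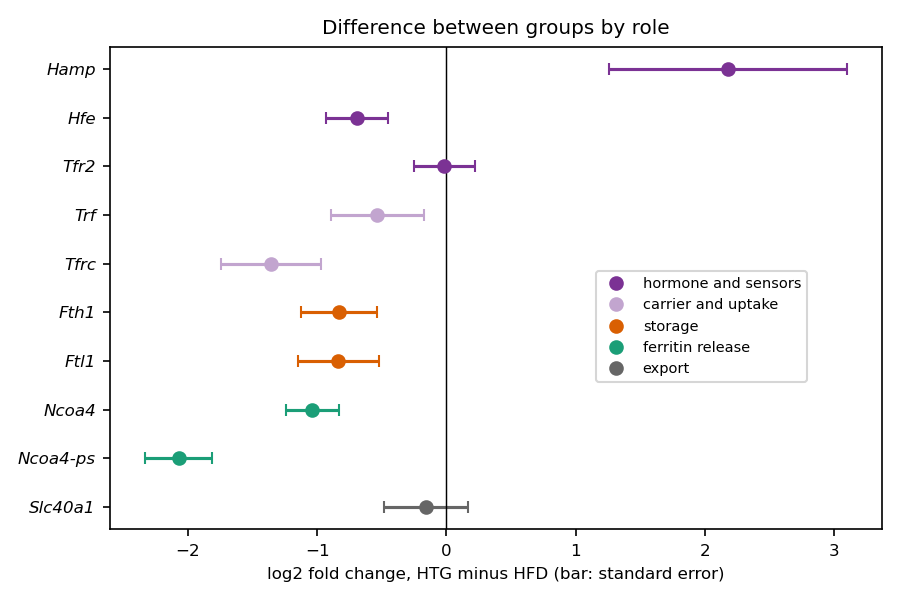
Fitted log2 fold change of HTG against HFD (points, with bars for the standard error) of the 10 genes, coloured by role. Hamp is the only gene right of 0 (2.18), Ncoa4-ps is lowest (-2.07), and the bars of Tfr2 and Slc40a1 cross 0.

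Both ferritin chains were lower in HTG, by about the same amount. Fth1 (ENSMUSG00000024661, chr19:9957962-9962456), the heavy chain that oxidises iron for storage, was at 1910, 2235 and 1722 CPM in HFD and at 1569, 857 and 869 CPM in HTG. Ftl1 (ENSMUSG00000050708, chr7:45107368-45109308), the light chain that helps form the mineral core, was at 3773, 5996 and 3272 CPM in HFD and at 3058, 2300 and 1947 CPM in HTG. For both chains the groups did not overlap, and HTG library 1 was the nearest to HFD.

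The mean of Fth1 was 1956 ± 259 CPM (SD, n = 3) in HFD and 1098 ± 408 (SD, n = 3) in HTG, 1.78-fold lower, with a log2 fold change of -0.83 (SE 0.30), an unadjusted p of 0.0219 and an adjusted p of 0.134 in edgeR's test. The mean of Ftl1 was 4347 ± 1450 CPM (SD, n = 3) in HFD and 2435 ± 568 (SD, n = 3) in HTG, 1.79-fold lower, with a log2 fold change of -0.84 (SE 0.31), an unadjusted p of 0.0271 and an adjusted p of 0.148. The ratio of the chains overlapped between the groups: Fth1 had 0.196, 0.144 and 0.203 of the Ftl1 FPKM in HFD and 0.198, 0.144 and 0.172 in HTG. The unadjusted p of Fth1 was 0.051 without HFD library 1, 0.0643 without HFD library 2, 0.0608 without HTG library 2 and 0.0872 without HTG library 3, and that of Ftl1 was 0.114, 0.0554 and 0.0955 without HFD library 2, HTG library 2 and HTG library 3. Without HFD library 2 the log2 fold change of Ftl1 was -0.54.

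Ferritin genes have many near-identical copies in the mouse, among which counts can be split. The processed pseudogene Ftl2-ps held 0.176% to 0.275% of the Ftl1 counts per library and was itself lower in HTG, at 10.4, 15.5 and 7.94 CPM in HFD and 7.03, 4.04 and 3.69 CPM in HTG (log2 fold change -1.19, SE 0.34, adjusted p 0.0876). Ftl1-ps1 held 1.05% to 1.38% of the Ftl1 counts, and Fth-ps2 had at most 14 counts in any library. A row of 109 bases inside Ftl1 on the same strand, ENSMUSG00002076377, held 185 to 1112 counts and was higher in HTG, with a log2 fold change of 1.07, which is opposite to Ftl1.

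Ncoa4 (ENSMUSG00000056234, chr14:31881822-31901812) encodes the receptor that delivers ferritin to the lysosome, and had the lowest p of the 9 tested genes. It was at 121, 137 and 142 CPM in HFD and at 81.8, 54.5 and 58.6 CPM in HTG. The libraries of each group lay close together, and the highest HTG library was well below the lowest HFD library. The mean was 133 ± 10.8 CPM (SD, n = 3) in HFD and 65.0 ± 14.7 (SD, n = 3) in HTG, a 2.05-fold lower mean and a log2 fold change of -1.04 (SE 0.21), with an unadjusted p of 0.000924 and an adjusted p of 0.0582 in edgeR's test. Under 16 other settings the log2 fold change was between -1.28 and -0.92, the unadjusted p stayed under 0.05 in all 16, and the adjusted p lay between 0.000277 and 0.195 and was under 0.05 in 6.

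Ncoa4-ps (ENSMUSG00000021908, chr12:119224713-119226590) is listed as a processed pseudogene, a copy of a spliced mRNA put back into the genome, with 1 transcript and no overlapping gene row. It lies on another chromosome than its parent. It was at 15.7, 15.8 and 22.7 CPM in HFD and at 5.17, 3.16 and 4.59 CPM in HTG. The groups did not overlap, which is what it was chosen for, and its mean was 18.1 ± 4.0 CPM (SD, n = 3) in HFD and 4.31 ± 1.04 (SD, n = 3) in HTG, 4.20-fold lower, with a log2 fold change of -2.07 (SE 0.26). These levels rest on 1069, 1055 and 1629 estimated counts in HFD and 403, 309 and 215 in HTG.

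Relative to its parent, the pseudogene was also lower in HTG. Of the Ncoa4 counts it had 13.0%, 11.6% and 16% in the HFD libraries and 6.33%, 5.80% and 7.83% in HTG, that is 13.5% ± 2.26 (SD, n = 3) and 6.65% ± 1.05 (SD, n = 3). Per transcript length the shares were larger, at 64.5%, 57.7% and 79.7% of the Ncoa4 FPKM in HFD and 31.6%, 28.9% and 39.2% in HTG. In both groups library 3 had the highest share and library 2 the lowest. The log2 fold change of the pseudogene was 1.03 below that of Ncoa4, a difference of -1.03 that lay between -1.15 and -0.88 with each library left out.

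**Figure D4:**
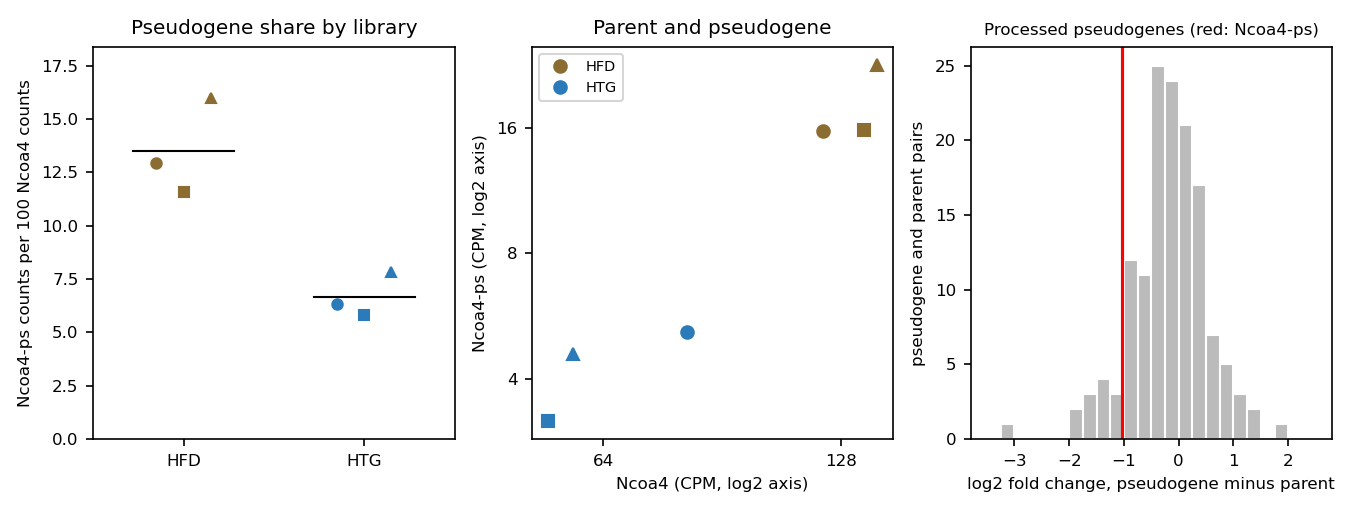
Left, Ncoa4-ps counts per 100 Ncoa4 counts in each library (line: group mean), with no overlap between 11.6 to 16 in HFD and 5.80 to 7.83 in HTG. Middle, Ncoa4-ps against Ncoa4 in CPM on log2 axes. Right, pseudogene minus parent difference in log2 fold change for 141 processed pseudogenes, with Ncoa4-ps at the red line (-1.03).

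Reads of a parent and its processed copy are alike, and how the counting divided them is not given in the sources used here. With the counts of both rows added, the level was 151 ± 13.9 CPM (SD, n = 3) in HFD and 69.3 ± 15.5 (SD, n = 3) in HTG, a log2 fold change of -1.13 (SE 0.21). This had to lie near that of Ncoa4 alone, since the pseudogene row held only 5.80% to 16% of the Ncoa4 counts. Whether the lower share lies in the division of reads or in the RNA was not tested.

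Among all 141 processed pseudogenes that were tested with their parent at a mean of at least 50 counts, the difference between pseudogene and parent had a median of -0.18, quartiles of -0.52 and 0.23, and a range from -3.19 for Rbpj-ps3 to 1.93 for Idi1-ps2. Ncoa4-ps ranked 12 from the lowest by this difference and 3 from the lowest by its own log2 fold change. Since it was chosen for its lower counts in these same libraries, a low rank was favoured in advance, and the ranks are a description only. Of the 141 pairs, the log2 fold change was below 0 for the pseudogene in 76 and for the parent in 65. Some parents, such as Rpl17, stand in several pairs, so the pairs are not independent.

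Over the 6 libraries the genes whose log2 CPM followed Ncoa4-ps most closely, of 14369 with a mean of at least 50 counts, were Usp12 (Pearson r = 0.999), a deubiquitinase, Gbe1 (0.998), the glycogen branching enzyme, and Abca6 (0.997), a transporter of the ATP-binding cassette family. Ncoa4 itself ranked 137, with r = 0.972. These are descriptions over 6 points that share the group difference and the depth of the libraries.

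Slc40a1 (ENSMUSG00000025993, chr1:45947228-45965683) encodes ferroportin, the iron exporter that hepcidin removes from the membrane. It was at 123, 147 and 79.8 CPM in HFD and at 139, 111 and 63.8 CPM in HTG. The groups overlapped, and library 3 was the lowest of each group. The mean was 117 ± 34.2 CPM (SD, n = 3) in HFD and 105 ± 37.8 (SD, n = 3) in HTG, a log2 fold change of -0.16 (SE 0.33), with an adjusted p of 0.799 in edgeR's test, and its sign turned without HFD library 2 and without HTG library 3. In FPKM, Hamp had 20.3, 75.8 and 6.06 times the level of Slc40a1 in HFD and 228, 172 and 206 times in HTG.

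Per transcript length the 10 genes spanned a wide range. In mean FPKM of the HFD libraries the order was Trf (7335), Ftl1 (3098), Fth1 (543), Hamp (484), Tfr2 (113), Hfe (16.2), Ncoa4 (13.7), Slc40a1 (12.4), Ncoa4-ps (9.32) and Tfrc (6.59). Fth1 and Hamp did not differ beyond the spread of Hamp (SD 563 FPKM), nor Ncoa4 and Slc40a1 beyond that of Slc40a1 (SD 3.19), nor Slc40a1 and Ncoa4-ps, nor Ncoa4-ps and Tfrc beyond that of Tfrc (SD 4.12). In the HTG libraries Hamp, at 2233 ± 1004 FPKM (SD, n = 3), stood above Ftl1, at 1710 ± 433 (SD, n = 3), by less than its own spread, with Trf first (4805) and Ncoa4-ps last (2.13).

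The rest of the iron pathway was set beside all genes tested. Of 118 other listed symbols of iron and heme handling, 105 were tested. The 118 include 12 listed copies of member genes, of which 4 were tested. At an unadjusted p under 0.05, 11 of the 105 (10.5%) were higher in HTG, Hamp2 among them. At that threshold 25 (23.8%) were lower, Ftl2-ps among them, against 12.3% higher and 12.4% lower of all genes. Their median log2 fold change was -0.16, and none had an adjusted p under 0.05 in edgeR's test, the lowest being 0.0582. These lists, too, were drawn up with earlier results of these data known.

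**Figure D5:**
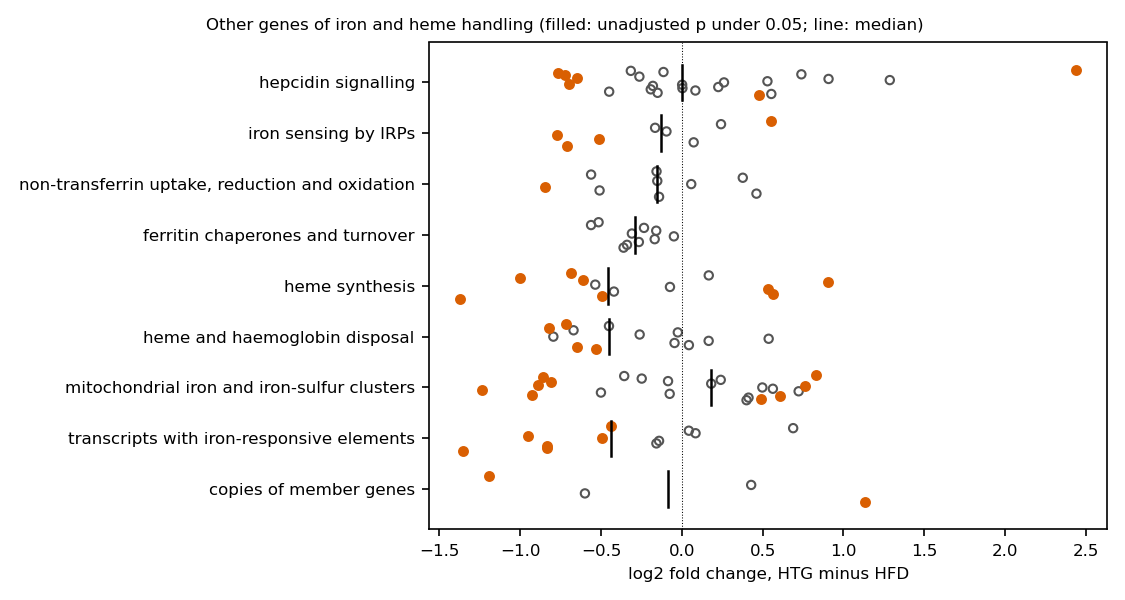
Log2 fold change of HTG against HFD for each tested gene of the lists of iron and heme handling, with filled points for an unadjusted p under 0.05 and a bar at each list's median. The list of transcripts with iron-responsive elements includes Tfrc, Fth1 and Ftl1. None of the 10 tested genes of ferritin chaperones and turnover is filled, against 24.7% of all genes. All 10 lie left of 0, against 48.4% of all genes.

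Of the 8 genes by which cells sense iron through iron regulatory proteins, 1 was higher and 3 were lower at an unadjusted p under 0.05 (12.5% and 37.5%, against 12.3% and 12.4% of all genes). Fbxl5, the ligase subunit that degrades iron regulatory protein when iron is ample, differed by -0.51 (log2, SE 0.15, adjusted p 0.0919) and its partner Skp1 by -0.77 (SE 0.23, adjusted p 0.0926). Mms19, which delivers iron-sulfur clusters to target proteins, was 0.55 higher (SE 0.16, adjusted p 0.0938). Ireb2, which encodes an iron regulatory protein, was at 58.8 to 78.4 CPM in all 6 libraries. Aco1, which encodes the other, was at 163, 143 and 242 CPM in HFD and at 130, 98.3 and 106 CPM in HTG. The groups did not overlap for Aco1, and its log2 fold change was -0.71 (SE 0.24, unadjusted p 0.0183, adjusted p 0.123 in edgeR's test). Of 11 transcripts with iron-responsive elements, the RNA hairpins these proteins bind, 6 (54.5%) were lower and none higher at that threshold, 3 of the 6 being Tfrc, Fth1 and Ftl1, and 3 of the 11 had fitted values above 0. These hairpins have opposite roles in the 3 genes, since the bound proteins stabilise the Tfrc mRNA and hold back translation of the ferritin mRNAs.

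Of 11 ferritin chaperones and turnover genes, 10 were tested and none had an unadjusted p under 0.05, against 24.7% of all genes. All 10 fitted values were below 0, against 48.4% of all genes, with a median of -0.29. Among 9 tested genes of other iron uptake, reduction and oxidation, 1 (11.1%) was lower at that threshold, near the 12.4% of all genes. It was the reductase Steap2 (-0.85, SE 0.24, adjusted p 0.084).

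In heme synthesis, 8 of 12 genes had an unadjusted p under 0.05, 3 higher and 5 lower (25% and 41.7%, against 12.3% and 12.4% of all genes). Alas1, the rate-limiting enzyme in the liver, was at 655, 1607 and 714 CPM in HFD and at 380, 423 and 347 CPM in HTG, with no overlap and a log2 fold change of -1.37 (SE 0.36, adjusted p 0.0747). The porphyrin transporter Abcb6 differed by -1.0 (SE 0.29, adjusted p 0.0924). Ppox and Alad, enzymes that act further along the pathway, were higher, Ppox by 0.90 (SE 0.21, adjusted p 0.0616) and Alad by 0.56 (SE 0.19, adjusted p 0.12). The unadjusted p of Alad was 0.0685 without HFD library 1 and 0.0586 without HFD library 2.

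Of 13 genes that dispose of heme and haemoglobin, 4 (30.8%) were lower and none higher at an unadjusted p under 0.05, against 12.4% and 12.3% of all genes, and 3 of the 13 had fitted values above 0. Those 4 included the heme oxygenase Hmox2 (-0.65, SE 0.18, adjusted p 0.0833) and the heme transporter Slc48a1 (-0.82, SE 0.21, adjusted p 0.0703). Of 21 genes of mitochondrial iron and iron-sulfur clusters, 4 (19%) were higher and 5 (23.8%) lower at that threshold. The assembly scaffold Iscu (0.60, SE 0.19, adjusted p 0.105) and Cisd3 (0.83, SE 0.17, adjusted p 0.0582) were higher, and the sulfur donor Nfs1 (-0.93, SE 0.20, adjusted p 0.0604) and the chaperone Hspa9 (-1.23, SE 0.28, adjusted p 0.0613) lower.

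Markers of the other cells that handle iron in the liver were measured beside these genes. Kupffer cells recycle red cell iron, and their 11 marker genes, none at 0, summed to 875 to 1546 CPM in HFD and 648 to 1178 in HTG. At an unadjusted p under 0.05, the threshold for each list here, 12.3% of all genes were higher and 12.4% lower. Of the 11 Kupffer markers, 2 (18.2%) were lower (Adgre1 and Cd5l). Fitted values were below 0 for 10 of the 11 and above 0 for 1, with a median log2 fold change of -0.41. Red cell markers summed to 235 to 430 CPM in HFD and 260 to 486 in HTG, with 1 of 7 lower (Alas2). The sums of sinusoidal endothelial markers, whose cells make Bmp6, were 91.7 to 201 in HFD and 165 to 244 in HTG (1 of 8 higher), those of stellate cells 154 to 220 and 137 to 192 (1 of 8 higher and 1 lower), those of biliary cells 85.6 to 107 and 59.6 to 132 (1 of 6 higher and 1 lower), and those of leukocytes 58.4 to 74.6 and 43.8 to 89.3 (0 of 7 at an unadjusted p under 0.05, with Cd79a and Ms4a1 at 0 in some libraries). In all of these the groups overlapped, and the part of these cells in the differences above was not tested.

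The acute phase genes, which inflammation induces in hepatocytes as it does Hamp, summed to 20350, 25469 and 17237 CPM in HFD and to 28106, 11047 and 61586 CPM in HTG, with 1 of 12 higher (Orm3, whose unadjusted p was 0.218 without HTG library 3). None of the 12 was at 0. Fitted values were above 0 for 10 of the 12 and below 0 for 2, with a median log2 fold change of 0.69, against 0.025 over all genes tested. HTG library 3, with the highest sum, had 600 CPM of Hamp, and HTG library 2, with the lowest, had 872 CPM. The part of the acute phase genes in the Hamp difference was not tested. Across the 10 genes, HTG library 1 was the highest of its group in 8, all but Trf and Tfrc. This library also lay near HFD over all genes tested. Its log2 CPM correlated at 0.971, 0.964 and 0.956 with HFD libraries 1, 2 and 3, and at 0.970 and 0.964 with HTG libraries 2 and 3.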

How the data were processed

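The authors deposited, for each gene row and each of the 6 libraries, an estimated count and an FPKM, a level per transcript length and per library depth. The submitters' processing notes list HISAT2, StringTie, SAMtools and the rat build mRatBN7.2, while the rows are mouse Ensembl genes, so coordinates are those of the table and their build is not given in the sources used here. Use of strand in the counting is not given either, so genes that overlap, lie antisense or are nearly identical have uncertain counts. No sequence is printed, since the sequences supplied for reference were of rat.

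The estimated counts, used as whole numbers, were fitted with edgeR 4.0.16 (TMM scaling, filterByExpr, quasi-likelihood test, R 4.3.3) with group as the only term, over 18455 genes, with Benjamini-Hochberg adjustment. Fragments were taken as counts divided by 4, from the excess of multiples of 4 among low counts, whose reason was not settled. The members and lists were chosen with earlier results of these data known. The named genes were the 10 members and, in each list, up to 2 genes per direction with the smallest unadjusted p under 0.05; exceptions are stated, and the overlapping rows, copies and extreme pseudogenes were named for their place. Alternatives were DESeq2 1.42.0 as a test and for scaling, upper-quartile scaling, no filter, a minimum of 10 counts in all libraries, counts divided by 4, limma 3.58.1 on log2(FPKM + 0.1) where the mean FPKM reached 1, with a pseudocount of 1 or no filter, the replicate number as a block, and each library left out in turn. The script was tested on simulated data.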

Additional observations from a re-analysis of the deposited data

How the results depend on the processing

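The count of genes at an adjusted p under 0.05, 2 in edgeR, depended on the processing. It was 2401 with DESeq2, 162 with no filter, 684 with at least 10 counts in every library, 822 with counts divided by 4, 878 with limma on log2(FPKM + 0.1), 884 with log2(FPKM + 1) and 0 with limma and no filter (4996 at an unadjusted p under 0.05). With single libraries left out it ranged from 0 to 653, the highest without HTG library 1. Among the 9 members other than Ncoa4-ps the count, 0 in edgeR, was 4 with DESeq2 (adjusted p 0.00696 for Tfrc, 0.027 for Fth1, 0.0302 for Ftl1 and 0.000277 for Ncoa4) and 1 (Ncoa4) with at least 10 counts, with counts divided by 4 and with limma at either pseudocount, and 0 to 2 with single libraries left out; the counts over the 9 were added after seeing the data, as was the sum of Ncoa4 and Ncoa4-ps. The causes were not tested.

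At an unadjusted p under 0.05, leaving out single libraries gave 3086 to 4958 genes (4563 with all), 2 to 6 of the 9 members other than Ncoa4-ps (6 with all; 3 to 7 with Ncoa4-ps, whose place the choice had fixed) and 30 to 46 other iron genes (36 with all). The other settings gave 3506 to 5105 genes, 5 to 6 of the 9 members and 36 to 41 other iron genes. The difference between Ncoa4-ps and Ncoa4 was -0.71 with log2(FPKM + 1), where the pseudocount is large beside the pseudogene's FPKM, and -1.15 to -0.88 with single libraries left out. Tfr2 (-0.015) turned to 0.021 with upper-quartile scaling, 0.11 without HFD library 2 and 0.13 without HTG library 2, with a range from -0.20 over single libraries left out. Slc40a1 (-0.16) turned to 0.044 without HFD library 2 and 0.11 without HTG library 3, with a range from -0.45. Ftl1 had an unadjusted p over 0.05 with limma and no filter. Hfe, Trf, Tfrc, Fth1, Ftl1, Ncoa4 and Ncoa4-ps were below 0 and Hamp above 0 under all 16 alternatives.

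Replicate numbers are shared between the groups. Deviations from the group means correlated at -0.094 for number 1, -0.089 for number 2 and 0.137 for number 3. With 3 libraries a group, such correlations cannot decide whether libraries of the same number were paired or shared a batch. With the replicate block, 0 genes had an adjusted and 3867 an unadjusted p under 0.05, and Hamp was 3.16. Library 3 correlated best with its own number, while library 1 and library 2 did not. With 3 libraries a group, differences of the size of Tfr2 and Slc40a1 were within the spread between libraries.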
